A study of Mus musculus with 6 samples.

Results

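The chemokines Cxcl12, Cxcl13, Cxcl14 and Ccl11, which connective tissue cells of the skin secrete, and the receptors Cxcr4, Cxcr5 and Ackr3 were followed by symbol through single-cell RNA sequencing of mouse dorsal skin, 7 of the 31053 genes in the count tables. All 7 symbols were found once each. The mice were female C57BL/6 animals of 8 to 10 weeks. Sham skin was untreated, IMQ skin received 62.5 mg of a 5% imiquimod cream daily for 4 days, and IMQ+SHP099 skin received the same cream together with SHP099, given by gavage at 10 mg/kg daily for 4 days. Imiquimod activates Toll-like receptor 7 and is used to induce psoriasis-like inflammation, and SHP099 is an allosteric inhibitor of the phosphatase SHP2. Each group had 2 libraries, each from the pooled skin of 2 mice in Sham and of 3 mice in the cream-treated groups, so the library is the replicate and p-values measure only the spread between pools. IMQ was compared with Sham to ask how the cream changed the members, and IMQ+SHP099 with IMQ to ask whether the inhibitor moved them.

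Chemokines are small secreted proteins that bind G protein-coupled receptors on leukocytes and direct their migration. Cxcl12 signals through Cxcr4, which retains and attracts many leukocytes and stem cells, while Ackr3 is an atypical receptor that binds Cxcl12 and removes it without the usual G protein signal. Cxcl13 draws B cells and follicular helper T cells through Cxcr5. Cxcl14 is a homeostatic chemokine made by epithelium and stroma whose receptor is not settled, and Ccl11, or eotaxin, recruits eosinophils through Ccr3. In skin, dermal fibroblasts are a well-known source of Cxcl12 and Ccl11, and keratinocytes are a well-known source of Cxcl14.

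In the GRCm38 assembly with the GENCODE vM21 annotation, all 7 are protein-coding genes. Cxcl12 lies at chr6:117168535-117181367 on the plus strand, Cxcl13 at chr5:95956951-95961068 on the plus strand, Cxcl14 at chr13:56288643-56296551 on the minus strand and Ccl11 at chr11:82057823-82062955 on the plus strand. Cxcr4 lies at chr1:128588199-128592293 on the minus strand, Ackr3 at chr1:90203980-90216751 on the plus strand and Cxcr5 at chr9:44511787-44561877 on the minus strand. The 250 bases before the RefSeq transcription start (GRCm38.p6) are shown for Cxcl12, Cxcl13 and Cxcl14, the ligands that were called higher after the cream in at least 1 fibroblast sum below. They are written 5′ to 3′ on the strand of the gene, and capitals mark the letters that matched a searched motif.
Cxcl12, chr6:117168285-117168534, plus strand: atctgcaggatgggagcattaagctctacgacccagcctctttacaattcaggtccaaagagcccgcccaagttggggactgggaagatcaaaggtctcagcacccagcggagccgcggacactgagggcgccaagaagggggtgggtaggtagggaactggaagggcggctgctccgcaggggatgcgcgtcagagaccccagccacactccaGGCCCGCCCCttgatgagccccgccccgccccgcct
Cxcl13, chr5:95956689-95956938, plus strand: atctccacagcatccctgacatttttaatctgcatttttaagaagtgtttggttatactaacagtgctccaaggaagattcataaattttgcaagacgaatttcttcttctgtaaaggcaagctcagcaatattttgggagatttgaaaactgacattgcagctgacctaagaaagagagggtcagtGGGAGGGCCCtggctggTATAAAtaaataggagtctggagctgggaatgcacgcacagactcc
Cxcl14, chr13:56296552-56296801, minus strand: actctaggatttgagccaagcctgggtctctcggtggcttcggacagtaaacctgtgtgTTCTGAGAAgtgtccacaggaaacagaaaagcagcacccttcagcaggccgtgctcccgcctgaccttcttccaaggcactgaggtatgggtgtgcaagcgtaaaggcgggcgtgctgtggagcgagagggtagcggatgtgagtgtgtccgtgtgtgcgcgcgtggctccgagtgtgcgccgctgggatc
The patterns searched on both strands were a loose NF-kB pattern (GGG and CC with any 5 bases between them), a shorter and a longer STAT pattern (TTC and GAA with any 3 or any 4 bases between them), a TATA box (TATAAA) and an AP-1 pattern (TGA and TCA with any base between them). The NF-kB pattern occurred once before Cxcl12 and once before Cxcl13, and it occurs in 45.8% of the 32851 windows of this length. The TATA box occurred once before Cxcl13, against 12.4% of windows. The shorter STAT pattern occurred once before Cxcl14, against 7.02% of windows. The longer STAT pattern (5.85% of windows) and the AP-1 pattern (6.75%) were found in none of the 3. These are matches of letters and not binding sites.

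After the limits on UMIs, genes and mitochondrial share, 50850 of 55201 barcodes were kept, 7382 to 10293 per library, with 51968673 to 170319612 UMIs per library and a median of 5645 to 18264 UMIs per cell. A UMI is a tag that marks 1 captured molecule. Cells were put into classes by marker genes that include no member, which left 7.01% unnamed. The names were the same as those of Leiden clusters for 97.3% of the 46557 cells that both methods named. Of the 20445 fibroblasts, subsets were gated on 4 marker sets: Coch, Dkk2 and Crabp1, Plac8, Pi16, Sema3c and Dpp4, Cyp2f2, Lum and Ogn, or Wif1, Lrrc15 and Mdk, and they are called here by the first gene of each set. All 13 of these markers were higher inside their gate than outside it, most weakly Ogn, at 705 against 532 UMIs in 1000000 UMIs. The libraries differed in makeup, with fibroblasts from 13% of cells in Sham replicate 1 to 59.9% in IMQ+SHP099 replicate 2, and keratinocytes from 5.93% in that library to 71.1% in Sham replicate 1. Any 2 libraries shared 12 to 30 cell barcodes.

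Fibroblasts were the main source of 3 of the 4 ligands. They held 56.1% to 96.8% of a library's Cxcl12 UMIs, 76.2% to 97.7% of its Cxcl13 UMIs and 83.1% to 96.1% of its Ccl11 UMIs. For Cxcl14 their part ran from 0.976% in Sham replicate 1 to 90.7% in IMQ+SHP099 replicate 2, and keratinocytes held 93.5% and 71.7% in the Sham libraries. These parts depend on how many cells of each class a library holds, so levels are given below as CPM, the UMIs of the gene in 1000000 UMIs of the class.

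**Figure D1:**
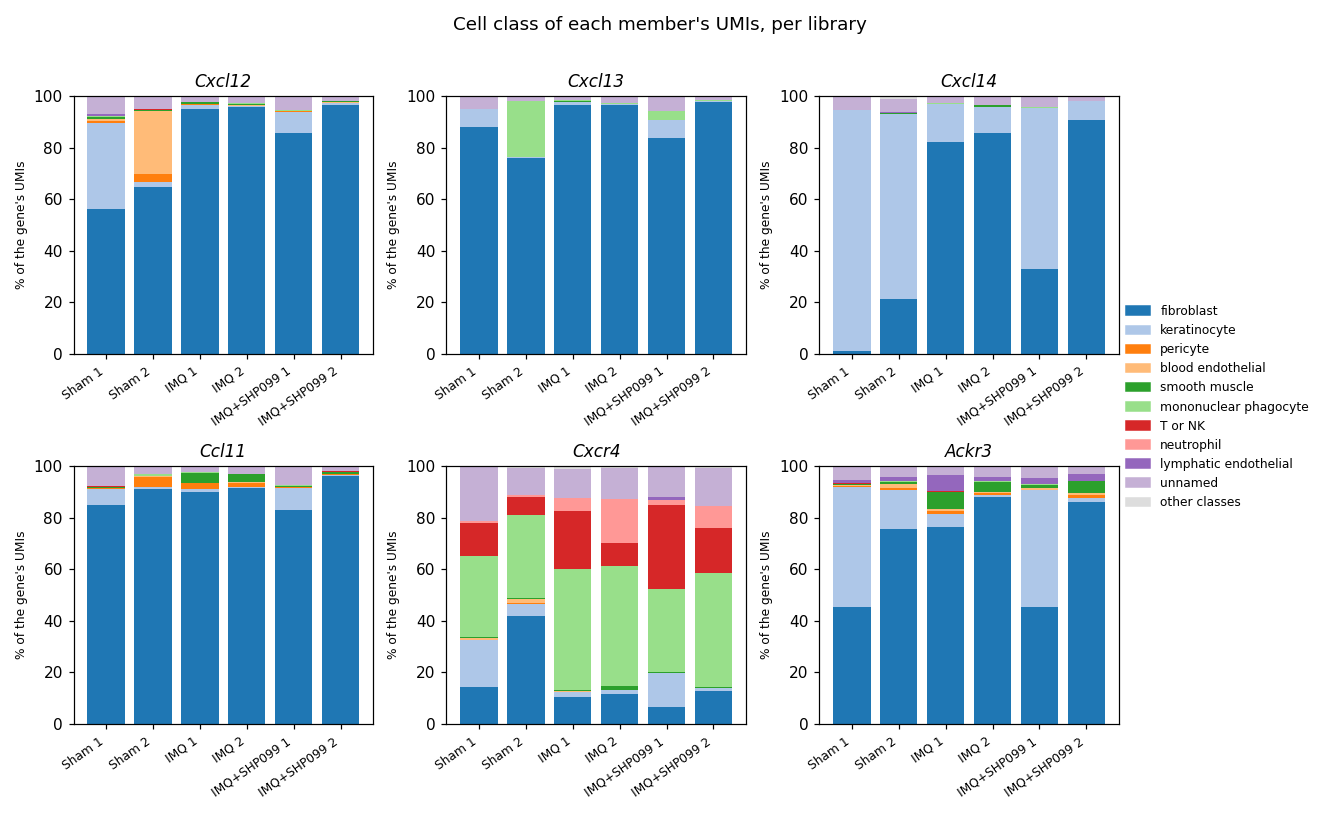
Stacked bars of the percentage of each gene's UMIs (vertical axis) that lay in each cell class, for the 6 libraries (horizontal axis), for 4 ligands and 2 receptors. Cxcl12, Cxcl13 and Ccl11 come mostly from fibroblasts in every library and Cxcl14 from keratinocytes in both Sham libraries, and the fibroblast part of Cxcr4 is largest in Sham replicate 2 (41.9%).

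Across classes with at least 20 cells in a library, Cxcl12 was highest by median in fibroblasts, where the lowest, median and highest library had 286, 1458 and 1779.5 CPM. Pericytes, the mural cells of small vessels, had 59.4, 190 and 673, and blood endothelial cells had 54.2, 113 and 1743. These 3 ranges overlapped, and in Sham replicate 2 the blood endothelial level (1743) exceeded that of fibroblasts (347). Smooth muscle held 40.8 to 80.4, lymphatic endothelium 19.1 to 71.6 and Schwann cells 10.6 to 31.9. Keratinocytes had 12.3 to 23.1 and T or NK cells 2.60 to 10.1 CPM, and the ranges of mononuclear phagocytes, T or NK cells and neutrophils overlapped. With cells thinned to 2000 UMIs, a Cxcl12 UMI was found in 27.3% to 69.6% of fibroblasts and in 0.319% to 2.13% of T or NK cells, a class not known as a source of it. Without thinning the shares were 41.3% to 81.3% at a median depth of 5162 to 9244 UMIs, against 0.714% to 4.15% at 1254 to 3941 UMIs.

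Cxcl13 was a fibroblast transcript with a far wider spread. Its lowest, median and highest fibroblast level was 28.4, 568 and 2044 CPM. Mononuclear phagocytes followed with 0.600, 34.6 and 95.7, and in Sham replicate 2 they exceeded fibroblasts (39.7 against 28.4). In the other named classes of at least 20 cells no library passed 30.8 CPM, the value of smooth muscle in IMQ replicate 1. Ccl11 was highest in fibroblasts (197 to 671) and next in pericytes (45.0 to 337), whose ranges overlapped, while smooth muscle had 11.5 to 67.2. Its level was below 16 CPM in every library of keratinocytes, endothelium, T or NK cells, neutrophils and phagocytes. Cxcl14 was found in several classes, with 77.1 to 470.3 CPM in fibroblasts, 59.3 to 686 in keratinocytes and 63.5 to 353 in Schwann cells, and these ranges overlapped. Mononuclear phagocytes reached 98.4 CPM in Sham replicate 1, above the fibroblasts of that library (87.8), and 2.27 to 25.6 in the other libraries.

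**Figure D2:**
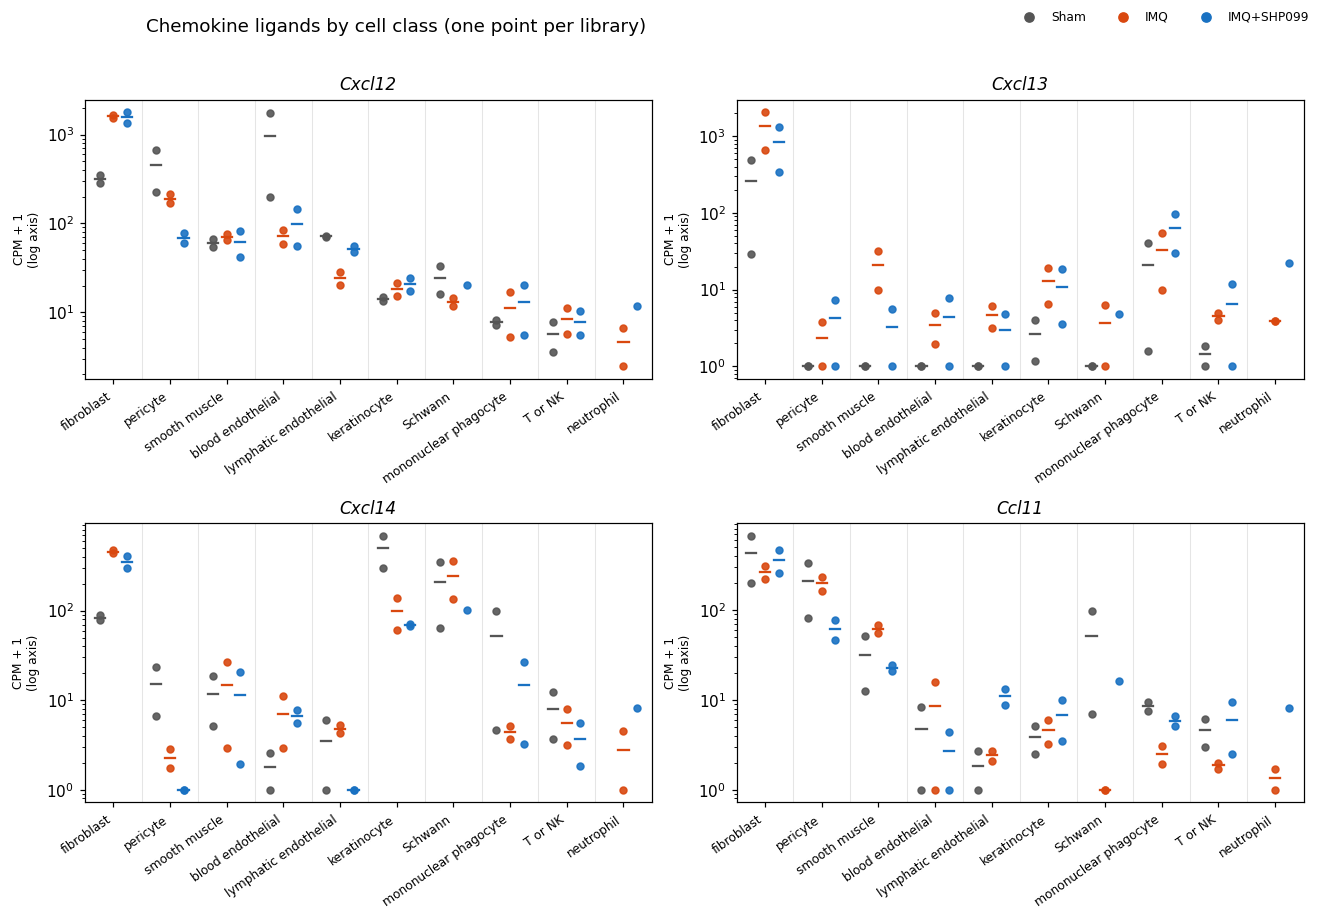
Level of each ligand (CPM plus 1, log axis) in 10 cell classes, 1 point per library with at least 20 cells and a bar at the mean of 2 libraries. Fibroblasts are the highest class for Cxcl13 in every library except Sham replicate 2, while within each Sham library Cxcl14 is highest in keratinocytes (686 and 300.4).

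Within fibroblasts the ligands were ranked differently by subset. Cxcl12 was highest in Cyp2f2-gated cells, with 356 and 523 CPM in the Sham libraries, 3111 and 3627 in IMQ, with 2456 and 2665 in IMQ+SHP099. It exceeded the Wif1-gated level in 6 of 6 libraries, by 2.64 ± 0.39 on the log2 scale (SD over libraries, exact two-sided sign-flip test, p adjusted over 24 tests = 0.0469). The same test passed for Cyp2f2-gated over Coch-gated (1.61 ± 0.68), Cyp2f2-gated over Plac8-gated (1.36 ± 0.92) and Plac8-gated over Wif1-gated cells (1.27 ± 0.69), each with adjusted p = 0.0469. All of these stood at the smallest p that the test can give with 6 libraries. Coch-gated cells could not be placed against Plac8-gated cells (mean difference −0.25 ± 1.43, adjusted p = 0.75), and they were lower in both Sham libraries and higher in the 4 others.

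Cxcl13 was highest in Plac8-gated fibroblasts in 6 of 6 libraries. Its Plac8-gated level was 1129 and 239 CPM in Sham, 3911 and 1224 in IMQ, with 755 and 3183 in IMQ+SHP099. It lay above Cyp2f2-gated cells by 2.30 ± 1.97, above Wif1-gated cells by 5.02 ± 1.82 and above Coch-gated cells by 6.46 ± 1.18 on the log2 scale, each with adjusted p = 0.0469 by the exact sign-flip test. At 2000 UMIs per cell, 20.9% to 75.0% of Plac8-gated cells had a Cxcl13 UMI, against 0 to 1.65% of Coch-gated cells. The 2 libraries of a group differed by more than 3 times in Plac8-gated cells in all 3 groups.

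Ccl11 was also highest in Plac8-gated cells by its median (539.6 CPM, range 253 to 948), next in Cyp2f2-gated cells (297, range 186 to 571). These 2 were not separated (0.85 ± 0.77, adjusted p = 0.0882 by the exact sign-flip test). Plac8-gated cells lay above Coch-gated (2.90 ± 1.27) and Wif1-gated cells (2.88 ± 0.77), both with adjusted p = 0.0469. Cxcl14 was lowest in Coch-gated cells, at 13.8 to 62.7 CPM, below the Plac8-gated (−3.11 ± 1.39), Cyp2f2-gated (−2.11 ± 0.65) and Wif1-gated levels (−1.64 ± 0.38), each with adjusted p = 0.0469. The other 3 pairs for Cxcl14 did not pass. In all 16 of the 24 pairs passed, and with any 1 library left out none could, since 5 libraries allow no p below 0.0625.

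**Figure D3:**
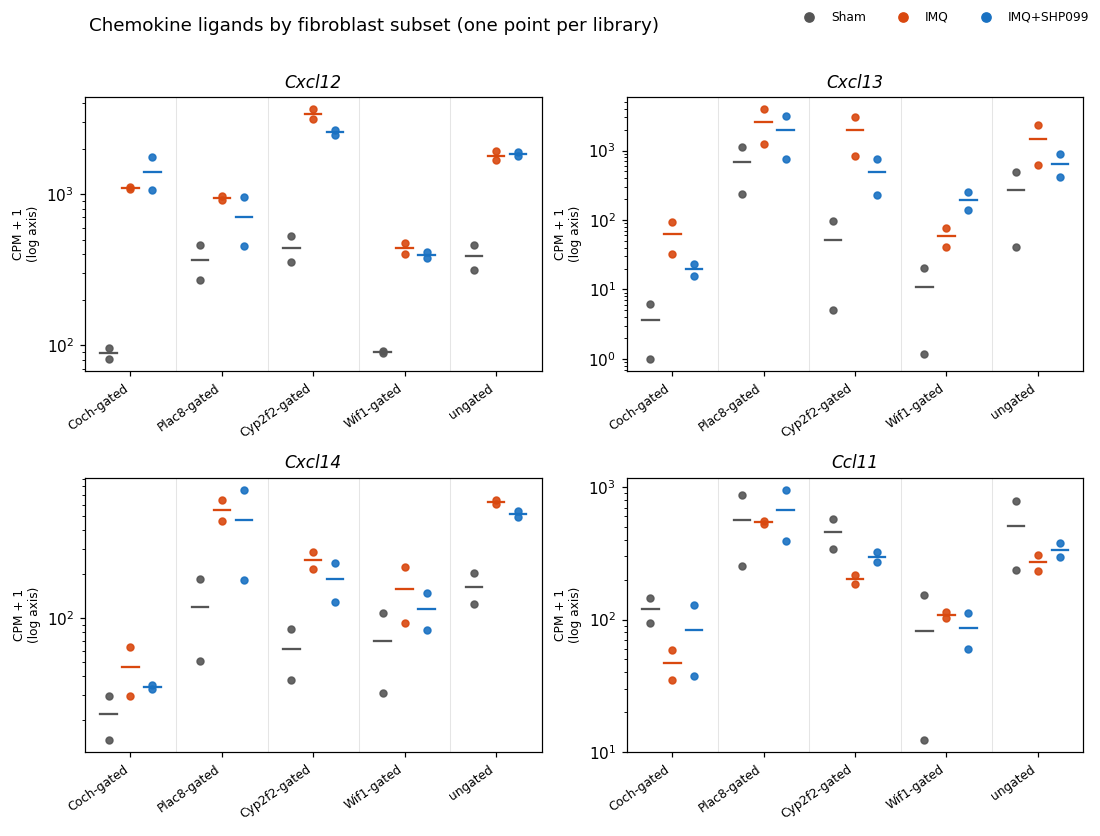
Level of each ligand (CPM plus 1, log axis) in the 4 gated fibroblast subsets and in fibroblasts that no gate took, 1 point per library and a bar at the mean of 2. The 4 cream-treated libraries lie above both Sham libraries for Cxcl12 in the Coch-, Cyp2f2- and Wif1-gated subsets, and Cxcl13 is highest in Plac8-gated cells.

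Cxcl12 and Cxcl14 rose in fibroblasts of IMQ skin relative to Sham skin. Cxcl12 was 286 and 347 CPM in Sham replicates 1 and 2, 1680.3 and 1551 in IMQ, with 1779.5 and 1366 in IMQ+SHP099. Every cream-treated library was above both Sham libraries. The log2 fold change was 2.43 ± 0.35 (SE, edgeR, adjusted p = 0.0454). Cxcl14 was 87.8 and 77.1 in Sham, 437 and 470.3 in IMQ, with 402 and 299 in IMQ+SHP099, again with no overlap, and its log2 fold change was 2.51 ± 0.35 (edgeR, adjusted p = 0.0406). These 2 of 6 tested members passed, against 0.554% of all 14809 genes tested in fibroblasts. Both calls stood close to the threshold and were lost without Sham replicate 2 (adjusted p = 0.11 and 0.111), IMQ replicate 1 (0.257 and 0.155), IMQ replicate 2 (0.166 and 0.108), IMQ+SHP099 replicate 1 (0.0913 and 0.0867) or IMQ+SHP099 replicate 2 (0.092 and 0.0881), with log2 fold changes that stayed between 2.23 and 2.54. Both were also lost with the 2 groups alone (0.0918 each), and Cxcl12 with RLE size factors or a 5% mitochondrial limit (0.0522 each).

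The other ligands in fibroblasts did not pass. Cxcl13 was 485 and 28.4 CPM in Sham, 2044 and 651 in IMQ, with 336 and 1326 in IMQ+SHP099 (log2 fold change for IMQ 2.30 ± 1.30, edgeR adjusted p = 0.588). Both IMQ libraries lay above both Sham libraries, but the 2 Sham libraries themselves differed more than 10 times. The Cxcl13 estimate was 5.89 (adjusted p = 0.0853) without Sham replicate 1, 1.35 (0.585) without Sham replicate 2 and 1.22 (1) without IMQ replicate 1, and it passed only with no filter on low counts (2.75e-06). Ccl11 was 671 and 197 in Sham, 218 and 307 in IMQ, with 260.0 and 462 in IMQ+SHP099 (−0.78 ± 0.64, adjusted p = 0.781). Its Sham libraries enclosed all 4 cream-treated ones, and without Sham replicate 1 the estimate turned to 0.72 (adjusted p = 0.379).

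Fibroblast markers and fibroblast makeup moved with the cream as well. The summed level of the 7 fibroblast markers used for the gate was 45900.0 and 55724 CPM in Sham, 31548 and 33312 in IMQ, with 28662 and 26671 in IMQ+SHP099, without overlap between Sham and the cream-treated groups. Coch-gated cells made up 5.29% and 5.96% of Sham fibroblasts and 14.2% to 23.5% of cream-treated ones, and Cyp2f2-gated cells 26.5% and 42.5% against 7.27% to 10.8%. The keratinocyte marker list summed to 383 to 849 CPM in Sham fibroblasts, 146 to 234 in IMQ, then 116 to 624 in IMQ+SHP099, with every marker detected in every library. Fibroblasts that no gate took made up 39.3% and 20.5% of Sham fibroblasts and 42.3% to 53.8% of cream-treated ones. They were not tested as a sum. Their Cxcl14 level was 124 to 202 CPM in Sham and 600 to 643 in IMQ, and their Cxcl12 level 313 to 458 and 1679 to 1912.5. The part of the shifts in markers and makeup in the ligand results was not tested, while the changes within single gated subsets are given next.

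Cxcl12 rose within 3 of the 4 gated subsets. In Coch-gated cells it was 80.1 and 94.9 CPM in Sham, 1071 and 1106 in IMQ, with 1744 and 1069 in IMQ+SHP099 (log2 fold change 3.66 ± 0.42, edgeR adjusted p = 0.00346). Cyp2f2-gated cells rose by 2.99 ± 0.36 (adjusted p = 0.00152) from the levels given above. Wif1-gated cells had 87.7 and 90.6 in Sham, 474 and 399 in IMQ, with 411 and 376 in IMQ+SHP099 (2.43 ± 0.30, adjusted p = 0.00258). Of the members tested, 2 of 6 were called in Coch-gated cells, 1 of 6 in Cyp2f2-gated cells and 2 of 6 in Wif1-gated cells, where 1.62%, 3.63% and 4.72% of all genes tested were called. The Cyp2f2-gated and Wif1-gated calls held in all 13 alternatives run, and the Coch-gated call was lost without Sham replicate 2 (adjusted p = 0.0951).

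Plac8-gated fibroblasts had Cxcl12 levels of 267 and 462 CPM in Sham, 913 and 971 in IMQ, with 956 and 451 in IMQ+SHP099. Both IMQ libraries lay above both Sham libraries, but the estimate of 1.41 ± 0.43 did not pass (edgeR adjusted p = 0.235, though 0.0204 with DESeq2 and 0.0168 with no filter), and neither did any of the 6 members in this subset, where 0.764% of all genes were called. The rise in Coch-gated cells exceeded that in Plac8-gated cells by 2.29 ± 0.25 in a test of the difference itself (edgeR with the library as a block, adjusted p = 0.0107), which was passed by 0.218% of all genes. That call was lost without Sham replicate 2 (1.99, adjusted p = 0.22).

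Cxcl13 was close to absent from Coch-gated fibroblasts of Sham skin and was called there after the cream. Its 2 Sham libraries had 5.17 and 0 CPM, which were 2 UMIs in all, its IMQ libraries 91.7 and 31.0, and its IMQ+SHP099 libraries 14.9 and 21.9. From summed counts the IMQ level was 64.8 times that of Sham, with a 95% counting interval of 17.9 to 536. The edgeR adjusted p was 0.0263. The call was lost without Sham replicate 1 (adjusted p = 0.0577), Sham replicate 2 (0.376) or IMQ+SHP099 replicate 1 (0.0656), with DESeq2 (0.144) and with the 2 groups alone (0.0631).

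In Cyp2f2-gated cells Cxcl13 was 96.4 and 4.13 CPM in Sham, 3059 and 836 in IMQ, with 226 and 757 in IMQ+SHP099, with no overlap between Sham and the other groups. The log2 fold change for IMQ of 5.23 ± 1.33 did not pass (edgeR adjusted p = 0.0671). It passed in 5 of 13 alternatives, which were no filter on low counts (4.75e-28), the replicate block (0.0051), and leaving out Sham replicate 1 (9.10, adjusted p = 0.0016), Sham replicate 2 (4.20, 0.0388) or IMQ replicate 2 (5.87, 0.039). Plac8-gated cells, which already had 1129 and 239 in Sham, had a difference smaller by 4.16 ± 0.53 than that in Cyp2f2-gated cells (edgeR test of the difference, adjusted p = 0.00927, passed by 1.36% of all genes). Without IMQ replicate 2 its adjusted p was 0.0621. Cxcl14 in Cyp2f2-gated cells was 84.1 and 36.9 in Sham against 216 and 282 in IMQ (2.04 ± 0.49, adjusted p = 0.0539), just outside the threshold, and it passed in 5 of 13 alternatives. Cxcl14 was thus called in no gated subset. The estimates were 2.33 ± 0.69 in Plac8-gated (edgeR adjusted p = 0.212), 1.40 ± 0.51 in Coch-gated (0.268) and 1.56 ± 0.65 in Wif1-gated cells (0.25). In Wif1-gated cells Sham (107 and 29.7 CPM) and IMQ (91.6 and 224.6) overlapped.

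Keratinocytes moved the other way for Cxcl14. The level was 686 and 300.4 CPM in Sham, 59.3 and 137 in IMQ, with 70.5 and 66.5 in IMQ+SHP099, so that every cream-treated library was below both Sham libraries. Cxcl14 fell by 2.18 ± 0.58 on the log2 scale (edgeR, adjusted p = 0.0398), and together with Ackr3 it made 2 of 6 tested members called in keratinocytes, where 13.8% of all 14303 genes were called. The fibroblast and keratinocyte changes of Cxcl14 differed by 4.55 ± 0.46 (edgeR test of the difference, adjusted p = 0.00289, passed by 9.16% of all genes), a call that held without any 1 of the 6 libraries. The keratinocyte call itself was lost without Sham replicate 1 (−1.10, adjusted p = 0.142), IMQ replicate 1 (0.258), IMQ+SHP099 replicate 1 (0.0923) or IMQ+SHP099 replicate 2 (0.0903), with the 2 groups alone (0.0826) and with Leiden clusters (0.0533). In the same cells several summed marker lists differed between IMQ and Sham without overlap. Lower in IMQ were the pericyte (175 to 222 CPM against 479 to 552) and Schwann lists (23.0 to 27.9 against 65.1 to 65.2). The mononuclear phagocyte list was also lower (41.6 to 60.3 against 73.6 to 501). So were the blood endothelial (2.62 to 3.40 against 4.60 to 11.6) and melanocyte lists (0.356 to 0.436 against 0.960 to 3.03). Higher in IMQ were the smooth muscle (74.1 to 101 against 11.9 to 73.6) and lymphatic endothelial lists (6.54 to 9.90 against 2.04 to 2.43). The neutrophil list was higher as well (11.1 to 12.8 against 0.972 to 1.90). The fibroblast list was 297 to 316 in IMQ and 176 to 320 in Sham. Their part in the Cxcl14 values was not tested.

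In blood endothelial cells and pericytes, the Cxcl12 estimates were negative and did not pass. Blood endothelial cells had 197 and 1743 CPM in Sham, 57.1 and 83.6 in IMQ, with 54.2 and 143 in IMQ+SHP099, and all 4 cream-treated libraries were below both Sham libraries (log2 fold change −3.63 ± 0.79, edgeR adjusted p = 0.0932). None of 3 members tested passed there, against 0.179% of all genes. Sham replicate 1 held only 27 of these cells, and without it the estimate was −4.40 (adjusted p = 0.000283), while without Sham replicate 2 it was −1.43 (adjusted p = 0.349). Fibroblasts and blood endothelial cells differed in their Cxcl12 change by 5.54 ± 0.83 (edgeR test of the difference, adjusted p = 0.00101, passed by 3.16% of all genes), and the call held without any 1 library, with 3.71 as the lowest estimate, without Sham replicate 2. In blood endothelial cells the summed pericyte list was 182 to 569 CPM in Sham and 19.7 to 52.2 in IMQ, the mononuclear phagocyte list 219 to 2071 in Sham and 183 to 203 in IMQ and the fibroblast list 394.5 to 683 against 223 to 1161, and their part was not tested. Pericytes had 227 and 673 in Sham, 168 and 212 in IMQ, with 59.4 and 77.1 in IMQ+SHP099 (−1.23 ± 0.40, adjusted p = 0.102). The estimate was −0.18 (adjusted p = 0.88) without Sham replicate 2 and passed in 4 of 13 alternatives, among them without Sham replicate 1 (−1.64, adjusted p = 0.0111) and with a 5% mitochondrial limit (−1.75, adjusted p = 0.00113). In pericytes 2.76% of all genes and none of 3 members were called. The smooth muscle marker list in pericytes was 8314 to 16202 CPM in Sham and 18221 to 23401 in IMQ, and the fibroblast list 1102 to 5735 against 5788 to 5950.3, and their part was not tested. Smooth muscle had Cxcl12 levels of 64.9 and 53.8 CPM in Sham and 63.5 and 74.5 in IMQ (0.38 ± 0.34, adjusted p = 0.654). In smooth muscle 0.018% of all genes and none of 6 members were called.

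Among the receptors, Cxcr4 was highest by median in leukocyte classes. Neutrophils had 244 to 581 CPM in the 3 libraries with at least 20 of these cells, mononuclear phagocytes 38.9 to 391 and T or NK cells 38.9 to 284, and these ranges overlapped. In phagocytes the 6 libraries read 65.4 and 159 in Sham, 274 and 292 in IMQ, with 38.9 and 391 in IMQ+SHP099. In T or NK cells they read 38.9 and 163 in Sham, 256.9 and 249.35 in IMQ, with 116 and 284 in IMQ+SHP099. Both IMQ libraries were above both Sham libraries in each class, but neither Cxcr4 nor any other member was called (adjusted p = 0.744 and 0.295 by edgeR), and no gene of 10674 and 8715 tested passed in these classes (background 0%).

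Fibroblasts carried little Cxcr4 apart from the Wif1-gated and Coch-gated subsets. In Sham replicate 1 the Wif1-gated level lay above those of mononuclear phagocytes (65.4 CPM) and T or NK cells (38.9). Wif1-gated cells had 68.2 and 115 CPM in Sham, 20.4 and 8.23 in IMQ, with 6.74 and 19.7 in IMQ+SHP099, with no overlap. Cxcr4 fell by 2.70 ± 0.48 on the log2 scale (edgeR, adjusted p = 0.0144). The change was lower than that in Cyp2f2-gated cells by 3.73 ± 0.62 (test of the difference, adjusted p = 0.00185, passed by 8.83% of all genes), and Sham levels in Cyp2f2-gated cells were 0 and 2.27. Coch-gated cells had 41.3 and 35.3 CPM in Sham, 12.9 and 17.4 in IMQ, with 2.74 and 20.7 in IMQ+SHP099. Cxcr4 was not called in them (−1.24 ± 0.60, edgeR adjusted p = 0.472). The difference of the Wif1-gated from the Coch-gated change did not pass (−1.71 ± 0.48, test of the difference, adjusted p = 0.0629). The call in Wif1-gated cells was lost without Sham replicate 2 (adjusted p = 0.16), which held 782 of these cells against 63 in Sham replicate 1, and without IMQ replicate 2 (0.0753). The summed T or NK marker list in these cells was 10.2 to 24.4 in Sham and 0.89 to 18.6 in IMQ, and the mononuclear phagocyte list 24.4 to 63.9 against 25.4 to 77.8. Their part in the Cxcr4 values was not tested.

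Among the classes Ackr3 was highest by median in lymphatic endothelium, at 208 to 680 CPM, and fibroblasts (160 to 417) overlapped it. In Sham replicate 1 the fibroblast level (405) lay above both Sham levels of lymphatic endothelium (208 and 383). Among the gated subsets it was highest in Plac8-gated fibroblasts, at 565 to 869. Plac8-gated cells did not overlap any other gated subset, since Cyp2f2-gated cells reached 271, Wif1-gated cells 168 and Coch-gated cells 160.2. Over all fibroblasts Ackr3 was 405 and 160 in Sham, 271 and 384 in IMQ, with 212 and 417 in IMQ+SHP099 (log2 fold change for IMQ 0.18 ± 0.57, edgeR adjusted p = 0.972). In Wif1-gated cells it was 73.1 and 21.04 in Sham, 138 and 130 in IMQ, with 118 and 168 in IMQ+SHP099 (1.93 ± 0.55, adjusted p = 0.0817), without overlap but short of the threshold. It passed in 5 of 13 alternatives, among them without Sham replicate 1 (2.89, adjusted p = 0.00374), and was 0.92 (0.422) without Sham replicate 2. That change exceeded the one in Cyp2f2-gated cells by 2.01 ± 0.29 (test of the difference, adjusted p = 0.000641), and the call held without any 1 library. Ackr3 also differed in its change between Wif1-gated and Coch-gated cells (2.02 ± 0.28, adjusted p = 0.000757) and between Wif1-gated and Plac8-gated cells (1.95 ± 0.46, adjusted p = 0.0342), tests passed by 3.71% and 4.1% of all genes, and both calls were lost without Sham replicate 2 (adjusted p = 0.0682 and 0.382). The second was also lost without IMQ replicate 1 (0.0769) or IMQ replicate 2 (0.0599). Keratinocytes had 33.7 and 37.8 in Sham, 13.3 and 11.1 in IMQ, with 19.7 and 18.1 in IMQ+SHP099, and Ackr3 fell there by 1.28 ± 0.27 (edgeR, adjusted p = 0.0186). This call was lost without Sham replicate 1 (adjusted p = 0.0545), IMQ replicate 1 (0.112) or IMQ replicate 2 (0.218). Smooth muscle had 37.5 to 54.4 CPM in Sham and 107 to 129 in IMQ (1.55 ± 0.30, edgeR adjusted p = 0.104). Blood endothelial cells had 36.6 to 53.1 and 81.2 to 96.3 (1.29 ± 0.44, edgeR adjusted p = 0.228). In Wif1-gated cells the summed smooth muscle list was 1160 to 1257 CPM in Sham and 615 to 788 in IMQ, and its part in the Ackr3 values was not tested.

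**Figure D4:**
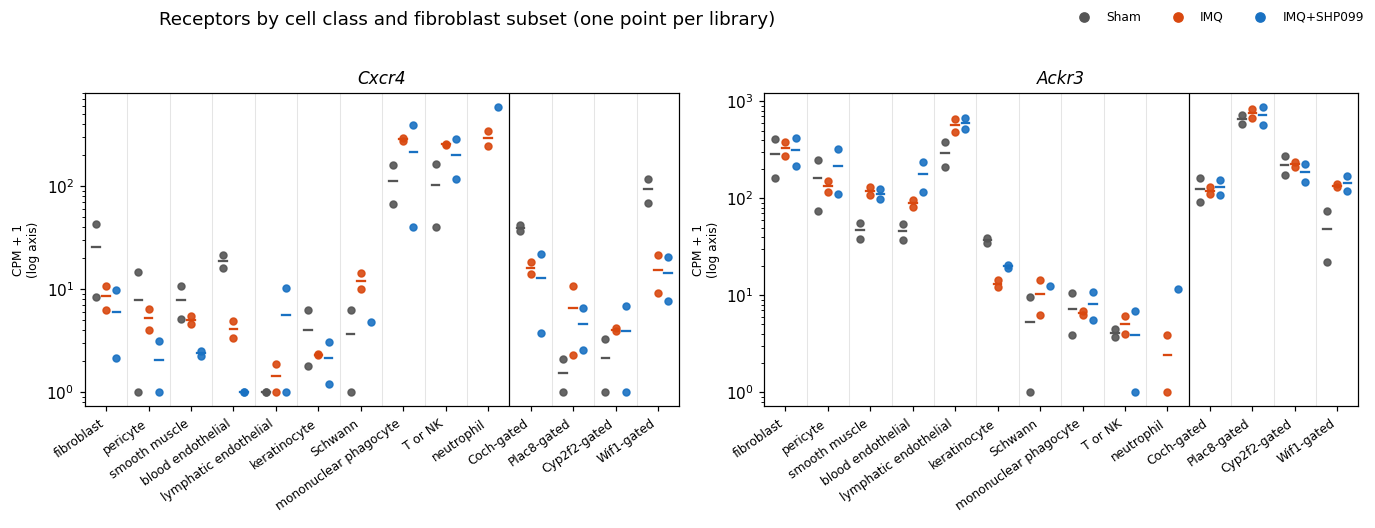
Level of Cxcr4 and Ackr3 (CPM plus 1, log axis) in 10 cell classes and, right of the black line, in 4 fibroblast subsets, 1 point per library with at least 20 cells and a bar at the mean of 2. Cxcr4 is highest in leukocytes except in Sham replicate 1, where Wif1-gated fibroblasts (68.2) lie above mononuclear phagocytes (65.4) and T or NK cells (38.9). Among fibroblasts it is highest in Sham Wif1-gated cells (68.2 and 115). Ackr3 is highest by median in lymphatic endothelium among the classes, where fibroblasts overlap it, and in Plac8-gated cells among the subsets.

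Cxcr5, the receptor of Cxcl13, was near the limit of detection. All 6 libraries held 29 Cxcr5 UMIs in 23 cells. B or plasma cells, of which only 39 were captured, held 4 of these cells (10.3%). None of 2389 T or NK cells had a Cxcr5 UMI, which allows a share of up to 0.126% of cells with a UMI, and 6 of 20445 fibroblasts had one (0.0293%). Cxcr5 was tested in no sum, since it passed the filter on low counts in none. Ccr3, the receptor of Ccl11, was likewise rare, with 130 UMIs in 101 cells.

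SHP099 added to the cream was not followed by a called change of any member. Of 56 tests of a member in a cell class or subset, 0 passed by edgeR and 10 had an unadjusted p under 0.05, while DESeq2 called 0 and gave 5 under 0.05. The unadjusted counts were not set against those of all genes. These tests are not independent, since the fibroblast sum holds the cells of its gated subsets. No gene was called in fibroblasts, in their 4 subsets, pericytes, smooth muscle, keratinocytes, T or NK cells or phagocytes (background 0%), and 0.0239% of genes were called in blood endothelium. In fibroblasts the log2 fold change against IMQ was 0.06 ± 0.33 for Cxcl12, −0.67 ± 1.24 for Cxcl13, −0.28 ± 0.33 for Cxcl14 and 0.53 ± 0.64 for Ccl11, each with edgeR adjusted p = 1. The libraries of the 2 groups overlapped for Cxcl12 (1551 to 1680.3 against 1366 to 1779.5 CPM). For Cxcl14 they did not overlap in CPM, with 299 to 402 in IMQ+SHP099 against 437 to 470.3 in IMQ. After the TMM scaling used by edgeR the Cxcl14 levels did overlap, with 445.7 and 301.2 in IMQ+SHP099 against 444.4 and 459.9 in IMQ. The standard errors leave room for changes of Cxcl13 in either direction.

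The fibroblast subsets differed in how Cxcl13 stood between these groups. Wif1-gated cells had 75.5 and 40.5 CPM in IMQ, with 140 and 248 in IMQ+SHP099 (log2 fold change 1.84 ± 0.81, unadjusted p = 0.0475, adjusted p = 1 by edgeR). Coch-gated cells had 91.7 and 31.0 against 14.9 and 21.9 (−1.66 ± 0.56, adjusted p = 1). The difference of the 2 changes was 3.31 ± 0.29 (edgeR with the library as a block, adjusted p = 7.53e-05), and Cxcl13 was the only gene of 11608 called (0.00861%). Against Cyp2f2-gated cells the difference was 3.67 ± 0.38 (adjusted p = 0.00134), again the only gene called (0.00855%), and both calls held without any 1 library. Against Plac8-gated cells the Cxcl13 difference did not pass for Wif1-gated (2.19 ± 0.58) or Coch-gated cells (−1.11 ± 0.45). No member passed the test for a difference of its change from IMQ to IMQ+SHP099 between fibroblasts and blood endothelium (0.0532% of genes called) or between Plac8-gated and Cyp2f2-gated cells (0.00859%), nor from Sham to IMQ between Coch-gated and Cyp2f2-gated cells (1.63%). In pericytes, Ccl11 was 163 and 233 in IMQ, with 76.3 and 45.0 in IMQ+SHP099 (−1.87 ± 0.51, unadjusted p = 0.00242, adjusted p = 0.358 by edgeR). The summed fibroblast marker list in pericytes was 5788 to 5950.3 CPM in IMQ and 2316 to 2426 in IMQ+SHP099, and its part was not tested.

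**Figure D5:**
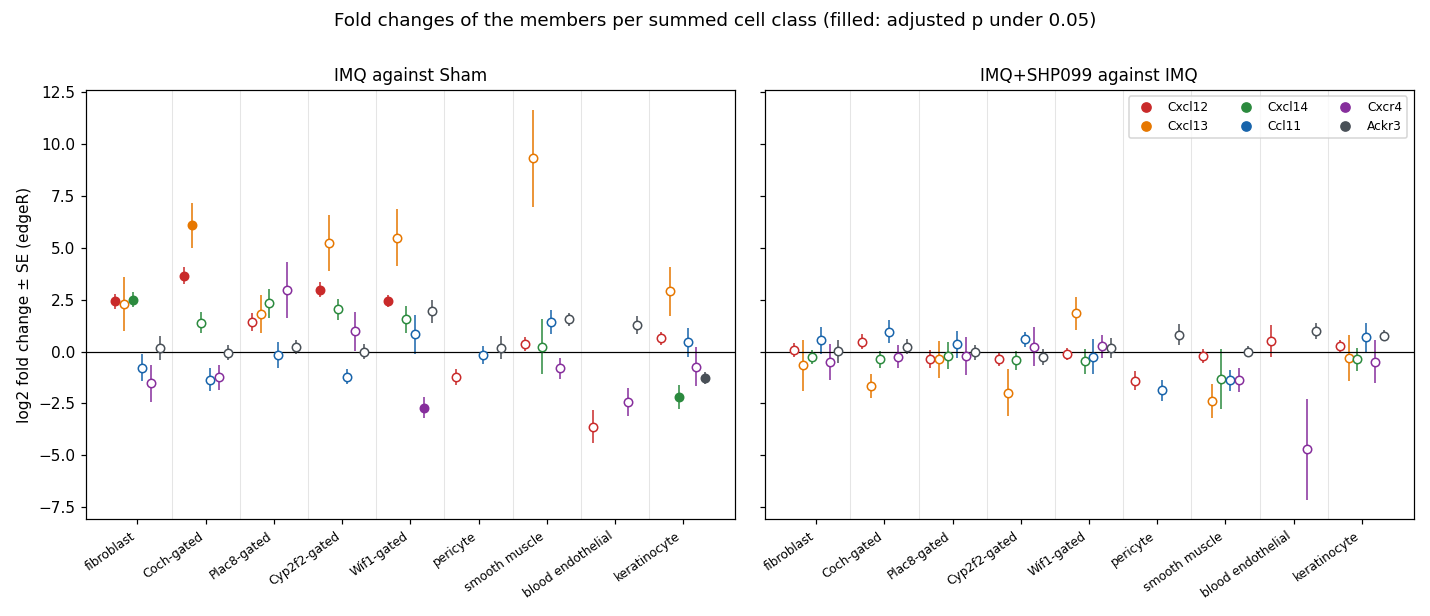
Log2 fold change (edgeR, vertical axis, bars are 1 standard error) of 6 members in 9 sums of cells, for IMQ against Sham on the left and IMQ+SHP099 against IMQ on the right, with filled points where the adjusted p is under 0.05. On the left 9 points are filled, 6 higher and 3 lower, and none are filled on the right. Estimates with a group at 0 UMIs, such as Cxcl13 in smooth muscle on the left and Cxcr4 in blood endothelium on the right, depend on the prior count.

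The genes whose levels ran most like each ligand over 69 class-by-library sums with at least 50 cells (13 classes or fibroblast subsets) were chosen by Pearson r over 10368 genes. For Cxcl12 they were C1ra (Pearson r = 0.901), a protease of complement, Fbn1 (0.884), the microfibril protein fibrillin, and Aebp1 (0.878). For Cxcl13 they were Ifi205 (0.85), Prg4 (0.835), the joint lubricant proteoglycan, and Aox3 (0.833). Cxcl14 ran most with Efs (0.847), Bnc2 (0.822) and Sfrp1 (0.813), a secreted Wnt antagonist, and Ccl11 with Mmp23 (0.935), Aldh1a1 (0.93), an enzyme of retinoic acid synthesis, and Cygb (0.913). Among the members Cxcl12 and Ccl11 had r = 0.773, Cxcl12 and Ackr3 0.739 and Cxcl12 and Cxcr4 −0.459. Sums of 1 library share its depth and cells, so these values describe likeness only.

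Of 33 other chemokine ligands, 26 were tested in fibroblasts and 1 was higher after the cream, Cxcl5, a neutrophil chemoattractant, with a median log2 fold change over the list of −0.26 against −0.01 over all genes. Cxcl5 was 0.149 and 0.0875 CPM in Sham, 4 UMIs in all, against 63.5 and 64.1 in IMQ, with 93.8 and 53.5 in IMQ+SHP099 (edgeR adjusted p = 0.00381). Of 20 other chemokine receptors 11 were tested and none passed, with a median of 0.61. The highest of them in fibroblasts by median were Ackr1 (56.5), Cx3cr1 (6.21) and Ccrl2 (5.94 CPM). Of 24 regulators of these axes, among them ligand-cleaving Dpp4, receptor kinases and upstream cytokine receptors, 23 were tested and 1 was higher, Epas1, a hypoxia-inducible transcription factor (2.98 and 10.5 in Sham, 146 and 80.6 in IMQ, with 141 and 83.3 in IMQ+SHP099, log2 fold change 4.16 ± 0.58, edgeR adjusted p = 0.0406). Its list had a median of 0.11. None of the 3 lists had a gene called between IMQ+SHP099 and IMQ.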

How the data were processed

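The authors aligned 10x 3′ reads from 6 libraries of dissociated dorsal skin to the mouse assembly GRCm38 with CellRanger 3.1.0 and deposited raw UMI counts per gene and cell. Barcodes under 100000 UMIs, 6500 genes and 10% mitochondrial UMIs were kept. Cells were named by marker scores (class score at least 0.25, second class at most 0.75 of the best, subset z at least 0.5 with a gap of 0.25). These cuts were set after the data were seen, 4.12% of cells lay near the class cut and 6.84% of fibroblasts near the subset cut, and 1074 cells with markers of a second class were left out in place of a doublet caller. The genes and lists were chosen with earlier results of these data known.

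Counts were summed per class or subset and library (at least 20 cells) and tested with edgeR 4.0.16 in R 4.3.3 (TMM, filterByExpr, quasi-likelihood, all 6 libraries, Benjamini-Hochberg over all genes). Calls are at an adjusted p under 0.05. Differences between classes, added after the data were seen, used both sums with the library as a block. Subset levels were compared by exact two-sided sign-flip tests of log2(CPM + 1). On simulated counts with 200 changed genes the scripts were checked. Intervals and floors of 3 counts are at 95% and cover counting error only. Thinned shares used 2000 UMIs per cell and left out shallower cells. Besides the 7 members, the text names the 3 genes most like each ligand (at least 50 cells per sum, at least 20 CPM in a class), list genes past the threshold and otherwise the 3 highest. Replicate numbers were used to pair libraries only in the replicate block. Alternatives were RLE size factors, no filter, DESeq2 1.42.0, Leiden clusters (scanpy 1.11.5), a 5% mitochondrial limit, the 2 groups alone, a replicate block, a pseudocount of 10 and leaving out each library.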

Additional observations from a re-analysis of the deposited data

Results flagged for a closer look

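Each result here is a change between groups that differed between 2 cell classes or subsets when the difference itself was tested (edgeR over both sums with the library as a block, adjusted over all genes). Values are differences of log2 fold changes, and 8 pairs of classes or subsets were compared for each of 2 contrasts.

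For IMQ against Sham, Cxcl12 had a more positive fold change in fibroblasts than in keratinocytes by 1.74 (adjusted p = 0.0189), a call lost without IMQ replicate 1 (0.0776) or IMQ replicate 2 (0.122). Cxcl14 did so by 4.55 (0.00289), and Cxcl12 had one more positive in fibroblasts than in blood endothelial cells by 5.54 (0.00101). In Coch-gated fibroblasts Cxcl12 had a larger fold change than in Plac8-gated ones by 2.29 (0.0107). Cxcl13 had a change in Plac8-gated cells that differed from that in Cyp2f2-gated cells by −4.16 (0.00927).

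In IMQ against Sham, Wif1-gated fibroblasts differed from at least 1 other subset for 4 members, and from all 3 only for Ackr3. Of all genes tested, 3.71% passed against Coch-gated, 4.1% against Plac8-gated and 8.83% against Cyp2f2-gated cells. For Ackr3 the difference was 2.02 against Coch-gated cells (adjusted p = 0.000757), 1.95 against Plac8-gated cells (0.0342) and 2.01 against Cyp2f2-gated cells (0.000641). For Cxcr4 it was −5.22 against Plac8-gated cells (0.00317) and −3.73 against Cyp2f2-gated cells (0.00185), and both comparison subsets held a Sham library at 0 UMIs, so these sizes depend on the prior count. For Ccl11 it was 3.15 against Coch-gated cells (0.0252) and 2.82 against Cyp2f2-gated cells (0.00823). Ccl11 in Wif1-gated cells was itself not called (0.83 ± 0.92, edgeR adjusted p = 0.755). Its Wif1-gated levels in Sham, 151 and 11.4 CPM, enclosed those in IMQ, 101.5 and 113.4. For Cxcl12 the difference was −1.25 against Coch-gated cells (0.0369). Sham replicate 1 held 63 Wif1-gated cells and Sham replicate 2 held 782. Without Sham replicate 2 the Ackr3 difference was 1.54 against Coch-gated cells (0.0682) and 0.80 against Plac8-gated cells (0.382), the Ccl11 difference against Coch-gated cells was 1.43 (0.516), the Cxcr4 difference against Plac8-gated cells had an adjusted p of 0.1 and the Cxcl12 difference one of 0.324. The Cxcl12 difference was also lost without Sham replicate 1 (0.0588), IMQ replicate 1 (0.0718) or IMQ replicate 2 (0.197), and the Ackr3 difference against Plac8-gated cells without IMQ replicate 1 (0.0769) or IMQ replicate 2 (0.0599).

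For IMQ+SHP099 against IMQ, Cxcl13 stood higher in its change in Wif1-gated than in Coch-gated cells by 3.31 (adjusted p = 7.53e-05) and than in Cyp2f2-gated cells by 3.67 (0.00134). Both calls held without any 1 library, with 2.93 to 3.66 and 3.18 to 4.20. In none of these 3 subsets was Cxcl13 itself called between these groups.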

How the results depend on the processing

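Of 56 tests of a member in a summed class or subset, 9 passed for IMQ against Sham. The number was 32 of 72 with no filter on low counts, 14 of 56 with DESeq2, 14 of 63 with Leiden clusters, 8 with RLE size factors, 6 with the 2 groups alone, 11 with a 5% mitochondrial limit, and 5 (without IMQ replicate 1) to 16 (without Sham replicate 1) with 1 library left out. For IMQ+SHP099 against IMQ it was 0, 6 with no filter, 2 with the 5% limit (Ackr3 higher and Ccl11 lower in pericytes), and 0 with any library left out. In the main setting the share of all genes called for IMQ against Sham ran from 0% in T or NK cells and phagocytes to 13.8% in keratinocytes. Shares of all genes under the alternatives are not given, so these counts do not show whether members moved more than other genes. The fibroblast sum holds the cells of its subsets, so the member tests are not independent. Of 24 sign-flip tests 16 passed, and 0 with at least 100 cells per sum. With any library left out 0 passed, where too few libraries remain for p under 0.05. The fold change of Ccl11 in fibroblasts was −0.78, and leaving out 1 library gave −1.50 (without Sham replicate 2) to 0.72 (without Sham replicate 1), the one value that reversed. Over 37 single values and 391 alternatives, 307 kept their direction and side of the threshold, 45 lost it and 38 gained it. Cxcl12 in fibroblasts lost its call in 8 of 13 alternatives with log2 fold changes of 2.36 to 2.53, and Cxcl14 in 6 of 13, while Cxcl12 in Cyp2f2-gated and Wif1-gated cells kept it in 13 of 13. The causes were not tested. With the replicate number as a block, 12 and 0 tests passed. In fibroblasts the correlations between groups of replicate 2 minus replicate 1 were −0.00465, 0.101 and 0.081. Replicate 1 had a larger share of keratinocytes than replicate 2 in Sham (71.1% and 20.7%), IMQ (17.0% and 7.81%) and IMQ+SHP099 (62.9% and 5.93%). Whether libraries of the same number share a batch was not tested.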
